A study of Homo sapiens with 2 samples.

Results

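The proteasome is the large protease that degrades proteins tagged with ubiquitin. Its barrel-shaped 20S core is built of stacked alpha and beta rings, whose genes carry PSMA and PSMB symbols, and the proteolytic sites face the inside of the beta rings. The 19S regulatory particle caps the core: a ring of ATPases, encoded by PSMC genes, unfolds substrates and feeds them into the barrel, and non-ATPase subunits, encoded by PSMD genes, bind ubiquitin, remove it and hold the particle together. Subunits are made in fixed proportions, and cells are known to raise the transcription of these genes together when proteasome activity falls short.

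The 34 genes of the list were chosen by symbol, and the brightest of a gene's probe sets, by the mean of its log2 values on both arrays, gave its value. Of the 34 genes, 30 had at least 1 probe set that the annotation assigned to that gene alone, out of 19775 genes measured in this way. PSMA6 was read only by 2 probe sets shared with PRORP, and PSMC5, PSMD7 and PSMD13 had 0 probe sets named for them, so these 4 genes were not analysed here. The label of the list holds for most members, but PSMD5, PSMD9 and PSMD10 encode chaperones that help to assemble the ATPase ring and leave before the 26S particle is complete.

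RNA came from A549, a human lung adenocarcinoma line, and from A549/DDP, the cisplatin-resistant line derived from it, each on 1 Affymetrix HG-U133 Plus 2.0 array. Neither label names a drug given before harvest, and cells of both lines were detached with trypsin. A free-text note on the A549/DDP sample mentions ZNF300 overexpression, which its title and phenotype do not, and the title was followed. A line was represented by 1 array, so replicate error is unknown, and every difference describes these arrays with no test of the lines.

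ZNF300, the gene that the study followed, read 7.59 (log2 signal) in A549 and 5.76 in A549/DDP. The A549/DDP value lay under the median of its array, 6.18. That direction opposes the study's, which also rests on RT-PCR and Western blotting, so all directions are given for the array as labelled. The ratio of 3' to 5' signal of GAPDH, a measure of RNA integrity, was 1.05 in A549 and 1.02 in A549/DDP, and that of ACTB was 4.21 and 3.70. Of 10 epithelial and A549 markers, 7 lay over the array's median (the floor, 6.22 for A549 and 6.18 for A549/DDP) in A549 and 6 in A549/DDP, with log2 summed levels of 16.4 and 16.6, and the surfactant gene SFTPC was under it on both. The epithelial markers went in both directions: the keratins KRT8 and KRT18 were 2.22-fold and 2.61-fold higher in A549/DDP, while the adhesion genes CDH1 and EPCAM, over the floor in A549 alone, were at least 2.17-fold and 1.82-fold lower against the floor. Markers of other cell types were over the floor on the A549 array and the A549/DDP array in 0 and 1 of 3 measured haematopoietic genes, in 2 and 2 of 5 fibroblast genes, and in 1 and 1 of 5 endothelial genes. Their log2 summed levels were 5.96 and 7.18, 9.42 and 10.03, and 7.89 and 8.40, with PTPRC and PECAM1 under the floor on both arrays. KDR and COL1A1, over the floor on both, were 2.02-fold and 1.97-fold higher in A549/DDP. Against the floor, CD3E and COL1A2 were at least 1.63-fold and 1.03-fold higher, and DCN at least 1.33-fold lower. The part of these markers in the results was not tested. In bulk RNA, a shift in the make-up of the cells and a change in RNA per cell cannot be told apart.

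Nearly every proteasome gene had a higher signal on the array labelled A549/DDP, by 1.03-fold in PSMD12 to 2.90-fold in PSMD1. Of the 30 measured members, 29 were higher and 1, PSMD10, was lower, whereas 50.4% of the 13159 expressed genes were higher and 49.6% lower. The median log2 difference was 0.42, a fold of 1.34, beside a median of 0.00 over all expressed genes. At least 1.5-fold higher were 9 of the 30 members (30.0%), beside 15.6% of all expressed genes, and 0 were at least 1.5-fold lower, beside 18.0%. At the 3-fold threshold of the study, 0 members were higher, beside 2.14% of expressed genes, and 0 were lower, beside 2.18%. PSMC1 (0.61) lay just inside the 1.5-fold limit, a log2 difference of 0.58, and PSMD14 (0.57) just outside it.

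**Figure D1:**
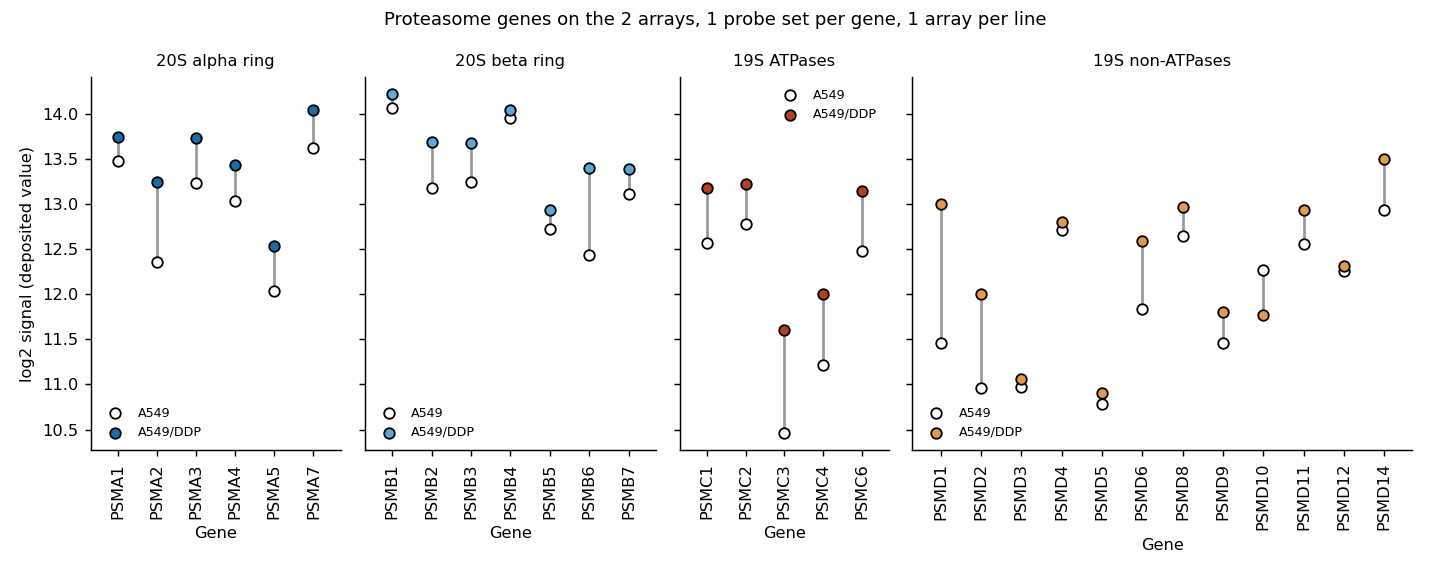
Log2 signal (vertical axis) of each measured proteasome gene on the A549 array (open circles) and on that labelled A549/DDP (filled circles), 1 probe set a gene, with a grey line joining the values; levels of different genes are read by different probes and are not comparable. The filled circle is above the open one for 29 of 30 genes, and below it for PSMD10.

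All 30 used probe sets lay above the 75th percentile of both arrays (8.66 for A549 and 8.64 for A549/DDP), and no member's fold was a bound set by the floor. Among the 8369 expressed genes that passed this percentile on at least 1 array, called bright here, 52.1% were higher and 47.9% lower, 16.6% were at least 1.5-fold higher and 17.4% lower, and past 3-fold were 2.75% and 2.46%. The middle of their distribution, between its quartiles, ran from -0.39 to 0.40. Of the 30 members, 29 were over the median of the bright genes and 17 over their upper quartile.

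**Figure D2:**
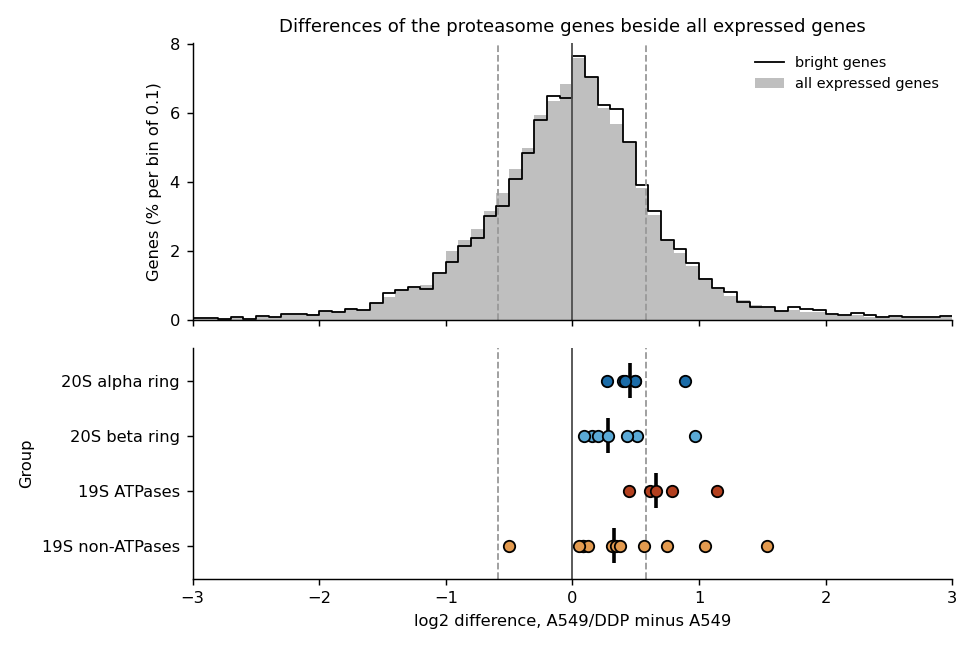
Top, percent of all expressed genes (grey bars) and of bright genes (black line) in each bin of log2 difference, A549/DDP minus A549. Bottom, the proteasome genes by group on the same horizontal axis, each circle a gene and each black bar the median of its group (0.46, 0.28, 0.66 and 0.33 from top to bottom); dashed lines mark 1.5-fold, and 29 of 30 genes lie right of 0.

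The alpha subunits, which form the outer rings and gate the entry to the barrel, were higher in 6 of 6 measured genes, with a median difference of 0.46 and a range from 0.27 to 0.89. PSMA2 read 12.35 in A549 and 13.24 on the array labelled A549/DDP, a fold of 1.85. It was the only alpha gene past 1.5-fold, and a further probe set of it differed by 1.10. PSMA1 had the smallest difference, from 13.47 to 13.74, and its 3 probe sets gave 0.12 to 0.36. The other alpha genes, PSMA3, PSMA4, PSMA5 and PSMA7, lay close together at 0.49, 0.40, 0.49 and 0.42.

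The beta subunits form the inner rings, and 3 of them, PSMB5, PSMB6 and PSMB7, carry the active sites of the constitutive proteasome. All 7 beta genes were higher, with a median of 0.28 and a range from 0.09 to 0.97. PSMB6, the subunit with caspase-like activity, read 12.43 and 13.40, a fold of 1.96, and stood apart from the other beta genes. PSMB7, the trypsin-like subunit, read 13.11 and 13.39, a fold of 1.22. PSMB5, the chymotrypsin-like subunit that the drug bortezomib inhibits, read 12.73 and 12.93, a fold of 1.15. The genes of the catalytic subunits therefore did not differ by a common amount, and PSMB6 was the only beta gene past 1.5-fold. Among the structural beta genes, PSMB2 (0.51) and PSMB3 (0.43) differed more than PSMB1 (0.16) and PSMB4 (0.09), the smallest difference of the core, from 13.95 to 14.04.

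The ATPase genes had the highest median of the 4 groups, 0.66. Of 5 measured members, 4 (80%) were at least 1.5-fold higher, beside 15.6% of all expressed genes. Each of these 4 was read by 1 probe set, so none could be compared with another of the same gene. PSMC3 read 10.46 in A549 and 11.60 on the array labelled A549/DDP, a fold of 2.21 that exceeded the difference of 95.5% of expressed genes. PSMC4 read 11.21 and 11.9999, a fold of 1.72. PSMC6 read 12.48 and 13.14, a fold of 1.58. The products of PSMC3, PSMC4 and PSMC6 sit side by side in the ring that drives unfolding. PSMC1, one of the ATPases whose tails open the gate of the core, read 12.57 and 13.18, a fold of 1.53. PSMC2 had the smallest difference, from 12.78 to 13.22, and its other 2 probe sets above the floor went the other way, at -0.54 and -0.38.

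The non-ATPase genes were the most uneven group: 11 of 12 were higher, with a median of 0.33 and an SD over genes of 0.53. PSMD1, a large scaffold of the base of the regulatory particle, had the largest difference of the list, from 11.46 to 12.99, a fold of 2.90, and its other probe set gave 1.10. PSMD2, the other large scaffold of the base, on which shuttle factors dock, read 10.96 and 12.004, a fold of 2.07. PSMD6, a subunit of the lid, read 11.84 and 12.58, a fold of 1.68. These 3 were the only non-ATPase genes past 1.5-fold. PSMD14, the deubiquitinase of the lid, read 12.93 and 13.50, a fold of 1.48. The ubiquitin receptor PSMD4 read 12.71 and 12.80, with a difference of 0.08. Other lid genes ranged widely: PSMD11 and PSMD8 differed by 0.38 and 0.31, and PSMD3 and PSMD12 by 0.09 and 0.05. Within the lid, large and small differences stood side by side.

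The 3 chaperones with PSMD symbols ranged from -0.50 to 0.34. PSMD9 read 11.46 and 11.80, with a difference of 0.34, and PSMD5 read 10.78 and 10.90, with a difference of 0.12. PSMD10, or gankyrin, which also binds the retinoblastoma protein and CDK4, read 12.26 and 11.76 and was 1.41-fold lower, the only member below 0. Its other probe set was lower as well, by a difference of -0.77. Without these 3 genes, 27 of 27 measured subunit genes were higher, with a median of 0.44.

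The 20S core and the 19S particle differed by about the same median. The median was 0.42 over 13 core genes and 0.44 over 17 genes of the regulatory particle, so that the core's median was lower by 0.03. Without the 3 chaperones the 19S median was 0.59 and the gap was -0.17. With the chaperones kept, the gap was 0.24 without probe sets of the _x_at and _s_at types, which can read more than 1 transcript. It was 0.091 with the dimmest probe set, the chaperones again kept. The spread over genes was larger in the regulatory particle, with an SD of 0.48 against 0.26 in the core, and 7 of 17 genes (41.2%) against 2 of 13 (15.4%) were at least 1.5-fold higher. The share in the core was close to the 15.6% of all expressed genes. Genes are not replicates, and the gap between the particles was not tested.

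Probe sets within a gene did not all go the same way. The 30 members were read by 57 probe sets of their own, of which 53 were above the floor on at least 1 array, and 42 of these were higher for A549/DDP and 11 lower. Of the 46 probe sets above the 75th percentile on both arrays 41 were higher, against 1 of the 7 dimmer ones. The same shares over all bright and all dimmer probe sets of the arrays were not computed. A trait of these genes and one of dim probe sets therefore cannot be told apart here. Of 16 members that had 2 or more probe sets above the floor, 9 had a common sign and 7 did not, namely PSMA3, PSMA5, PSMB7, PSMC2, PSMD4, PSMD9 and PSMD11. In PSMA3 the dimmer probe sets differed by -0.67 and -2.25, and in PSMD4 the dimmest by -1.46 while the other 3 gave 0.08 to 0.22. In PSMA5 and PSMD11 a bright probe set was lower, by -0.42 and -0.38, as was that of PSMC2. PSMB7 had a second value of -0.01 and PSMD9 one of -0.54. In all 7 genes the sign depended on the probe set, since each was higher with the brightest and lower with the dimmest. PSMA5, PSMB7 and PSMD4 stayed above 0 with the median over all their probe sets, at 0.04, 0.14 and 0.20. With the median over all probe sets, PSMA3, PSMC2, PSMD9 and PSMD11 were below 0, and so were PSMD5 and PSMD6, each through a probe set under the floor on both arrays. The 9 members past 1.5-fold had no probe set above the floor that was lower. Of these 9, only PSMA2 and PSMD1 had more than 1 probe set above the floor, so the others could not show a second sign. The median SD between the bright probe sets of 1 member was 0.19, over 13 members, beside 0.16 over 2566 genes. The differences of PSMB1, PSMB4, PSMD3, PSMD4, PSMD5 and PSMD12 were smaller than this SD.

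**Figure D3:**
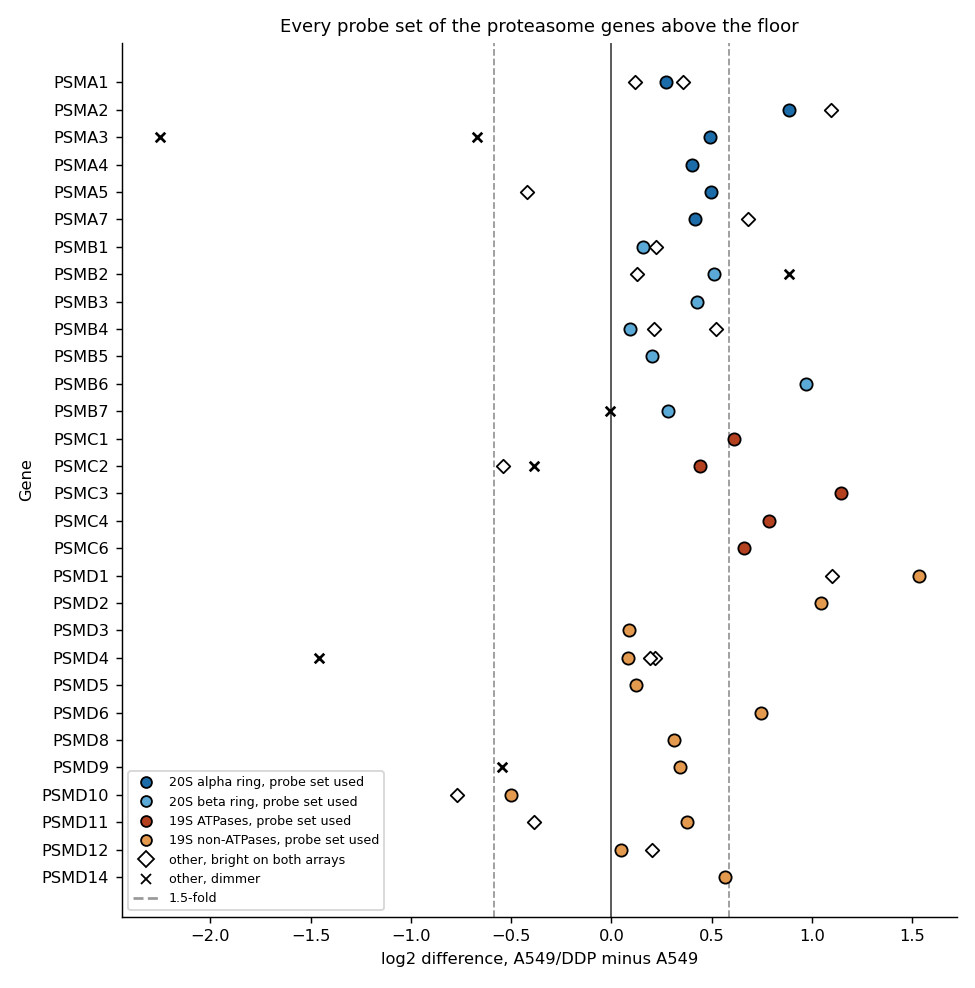
Log2 difference, A549/DDP minus A549, of all 53 probe sets above the floor (horizontal axis) by gene (vertical axis); filled circles are the probe sets used, diamonds other probe sets above the 75th percentile on both arrays, and crosses dimmer ones. Of the 11 values left of 0, 6 are crosses, and both values of PSMD10 are left of 0.

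Members are scattered over the genome, and each was set beside the up to 12 nearest expressed genes on each side, proteasome genes left out. The medians of the neighbours ran from -0.62 to 0.30, with 17 of 30 above 0, and 28 of the 30 members had a higher difference than the median of their neighbours. PSMB4 and PSMD4, which both lie on chromosome 1, were the exceptions. The share of all expressed genes that exceed the median of their own neighbours was not computed. PSMD10 is the only X-linked member, and its value lay beside a neighbour median of -0.62, with 3 of 24 neighbours higher; the 417 expressed X-linked genes had a median of -0.63. PSMC6 on chromosome 14 was 1.58-fold higher beside neighbours with a median of -0.30. PSMD1 on chromosome 2, PSMC3 on chromosome 11 and PSMA2 on chromosome 7 had neighbours with medians of 0.26, 0.23 and 0.30. Across the 30 members, the difference of a gene and the median of its neighbours had a Pearson r of 0.65, and 0.54 without PSMD10. These points share the same 2 arrays and are no replicates.

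**Figure D4:**
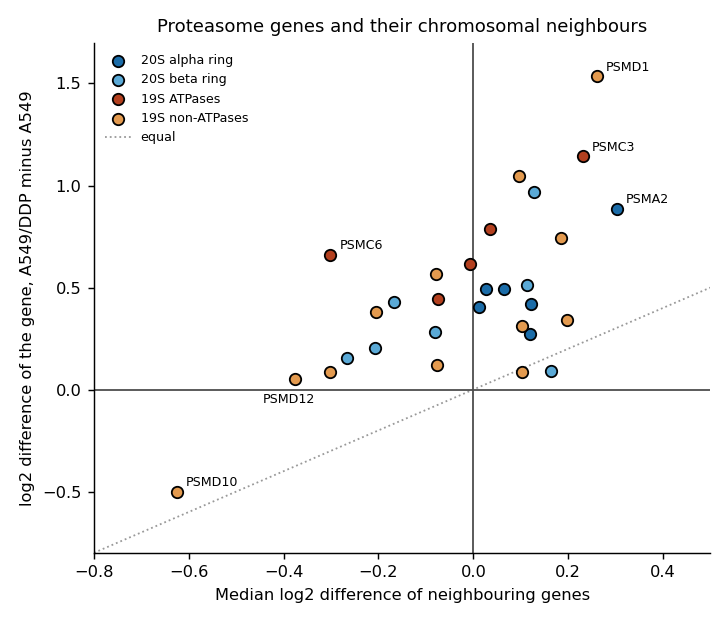
Log2 difference of each proteasome gene, A549/DDP minus A549 (vertical axis), against the median log2 difference of its up to 24 nearest expressed neighbours (horizontal axis); the dotted line marks equal values. 28 of 30 genes lie above the line, and PSMD10 is the only gene below 0 on the vertical axis.

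Promoter sequence was looked at because nearly all members were higher together. RefSeq windows (GRCh38.p14) were at hand for 29 of the 34 genes, and the 250 bases before the start were searched on both strands for TGACNNNGC, the core of the antioxidant response element to which NFE2L1 and NFE2L2 bind with small MAF proteins, for CGGAAG, the core bound by ETS factors, and for CCAAT, the box bound by NF-Y. No match of one motif overlapped a match of another in these windows. Sequences are shown for the genes with the largest difference in the base and in the ATPase ring, PSMD1 and PSMC3, for PSMB3, one of 2 members that held all 3 motifs, and for PSMD10, the only lower member. Each is written 5′ to 3′ along its gene and ends just before the start, and capitals mark matches to a motif on either strand.
PSMD1 (chr2:231056617-231056866, plus strand): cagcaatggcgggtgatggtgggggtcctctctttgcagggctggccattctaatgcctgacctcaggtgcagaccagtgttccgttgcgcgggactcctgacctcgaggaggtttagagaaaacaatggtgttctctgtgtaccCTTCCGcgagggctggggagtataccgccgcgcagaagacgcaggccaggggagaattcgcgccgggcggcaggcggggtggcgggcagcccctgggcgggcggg
PSMC3 (chr11:47426440-47426689, minus strand): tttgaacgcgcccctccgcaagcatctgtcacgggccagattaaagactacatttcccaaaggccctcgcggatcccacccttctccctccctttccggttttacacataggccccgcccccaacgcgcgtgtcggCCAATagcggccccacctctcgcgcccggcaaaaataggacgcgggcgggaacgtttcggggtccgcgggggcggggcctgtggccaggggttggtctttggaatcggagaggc
PSMB3 (chr17:38752491-38752740, plus strand): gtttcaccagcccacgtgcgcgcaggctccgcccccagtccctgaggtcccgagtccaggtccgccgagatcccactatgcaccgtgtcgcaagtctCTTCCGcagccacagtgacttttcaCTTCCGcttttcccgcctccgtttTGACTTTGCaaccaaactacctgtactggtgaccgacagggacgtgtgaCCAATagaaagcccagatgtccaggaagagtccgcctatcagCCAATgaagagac
PSMD10 (chrX:108091543-108091792, minus strand): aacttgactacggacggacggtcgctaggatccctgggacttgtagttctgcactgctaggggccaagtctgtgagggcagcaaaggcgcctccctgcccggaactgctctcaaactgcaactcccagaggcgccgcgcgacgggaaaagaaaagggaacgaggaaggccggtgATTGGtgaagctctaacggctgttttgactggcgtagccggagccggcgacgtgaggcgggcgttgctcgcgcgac

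CGGAAG was in 18 of 29 members (62.1%), beside 19.4% of 27305 genes with a window and 25.7% of those that code for protein. CCAAT was in 15 of 29 (51.7%), beside 37.0% and 40.2%. TGACNNNGC was in 7 of 29 (24.1%), beside 13.2% and 14.7%. Of 25 measured members with a window, 6 held TGACNNNGC, namely PSMA4, PSMB3, PSMD3, PSMD5, PSMD9 and PSMD12, and their median difference was 0.23, with 0 past 1.5-fold. The 19 without it had a median of 0.51, with 8 past 1.5-fold. PSMD1, PSMC3 and PSMD2 were among the latter. For CGGAAG the medians with and without were both 0.44, and for CCAAT they were 0.44 and 0.45. A match is a run of letters in this window and does not show binding.

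Genes that work with the proteasome did not share one direction. ADRM1 and SEM1, subunits of the regulatory particle without a PSM symbol, differed by 0.69 and 0.56. Of these, ADRM1, a ubiquitin receptor, was past 1.5-fold. Immunoproteasome subunits, which replace the catalytic subunits in cells exposed to interferon, were higher in 3 of 3 expressed genes. PSMB9, the counterpart of PSMB6, read 10.67 and 11.62, a fold of 1.94. PSMB10, the counterpart of PSMB7, read 10.39 and 11.20, a fold of 1.76. PSMB8, the counterpart of PSMB5, read 10.19 and 10.53, a fold of 1.26. By the brightest probe set, the order of the 3 immunoproteasome genes was that of their constitutive counterparts. With the median over probe sets it was not, as PSMB7 then differed by 0.14 and PSMB5 by 0.21. PSMA8, a testis subunit, was under the floor on both arrays, and the thymus subunit PSMB11 was not analysed here.

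By the brightest probe set, assembly chaperones of the core were higher in 4 of 5 genes, with a median of 0.27 and 0 past 1.5-fold. POMP, which helps the beta ring to mature, had the largest difference at 0.52, with a further probe set at -0.07. PSMG4 read -0.49 by its brightest probe set, and its other 2 above the floor were higher, by up to 4.63 before values were raised to the floor. Activators and the inhibitor PSMF1 had a median of 0.19 over 4 genes, of which PSME3, the nuclear cap of the core, was 1.74-fold higher and PSME1 read -0.20. The factors bound to the proteasome were split, with 5 of 10 higher and a median of 0.00. The deubiquitinase USP14, which docks on PSMD2, was 1.57-fold higher and UCHL5, which docks on ADRM1, 1.41-fold, while the X-linked shuttle factor UBQLN2 was 1.52-fold lower. These values depended on the probe set: USP14 differed by 0.063 with the median over its probe sets, UBQLN2 by -0.018 with its dimmest, and 1 of 4 probe sets of UCHL5 by -2.40. Ubiquitin and its activating enzymes were represented by 3 genes, with values from -0.17 for UBB to 0.12 for UBA1.

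By the brightest probe set, the regulators of proteasome genes were mostly lower, 5 of 6, beside 49.6% of all expressed genes. Their median was -0.25, but -0.07 with the dimmest probe set and -0.41 without _x_at and _s_at probe sets. MAFG, a small MAF gene, differed by -0.22, with a further probe set at 0.03. NFE2L1, the factor that activates proteasome genes when the protease is inhibited, read 11.997 and 11.78, with a difference of -0.22, and NGLY1, the enzyme that removes its sugars, differed by -0.29. NFE2L2, the master regulator of the antioxidant response, read 13.56 and 12.79 and was 1.69-fold lower, but differed by -0.09 with its dimmest probe set. Its partner MAFF read 12.42 and 10.26 and was 4.48-fold lower, the only gene of the lists past 3-fold, and 2 of 2 probe sets were lower. VCP, the unfoldase that delivers substrates, was the higher one at 0.32.

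Other multi-subunit complexes were set beside the proteasome. The CCT chaperonin, which folds actin and tubulin, was higher in 7 of 7 genes with a median of 0.41, close to that of the proteasome, and CCT6A (1.97-fold) and CCT5 (1.60-fold) were past 1.5-fold. The COP9 signalosome, which is built like the lid of the proteasome, was higher in 6 of 9 genes with a median of 0.15, and COPS3 was 1.54-fold higher. Translation factor eIF3, which shares that architecture too, was higher in 5 of 13 genes with a median of -0.28. EIF3B and EIF3J were 1.72-fold and 1.58-fold higher and EIF3E 1.52-fold lower. EIF3B turned to -0.20 and EIF3J to -0.10 when the dimmest of their probe sets was taken. The CCT chaperonin thus shared with the proteasome a higher signal in nearly every gene.

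**Figure D5:**
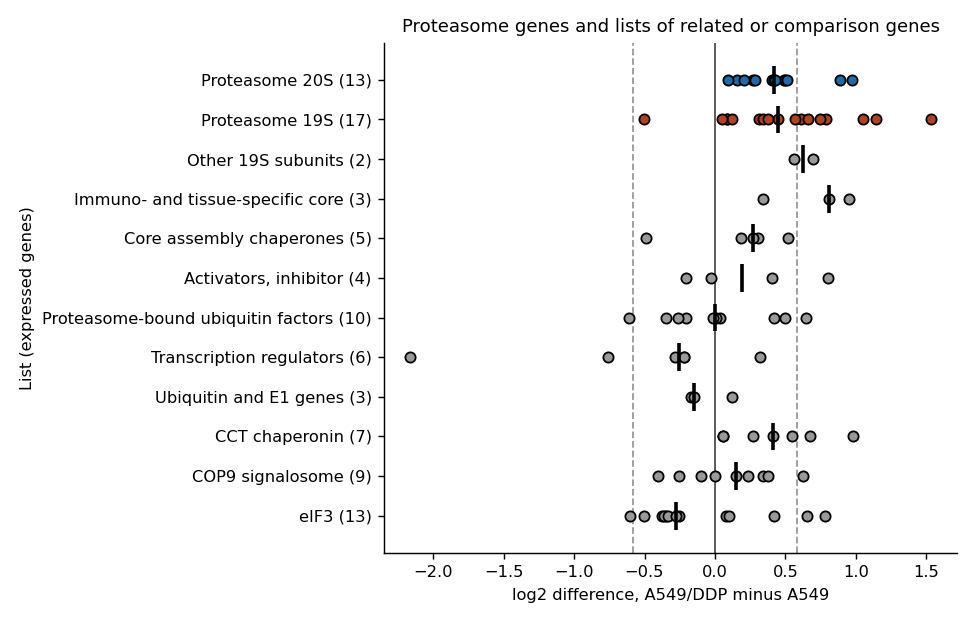
Log2 difference, A549/DDP minus A549, of each expressed gene (circles, horizontal axis) in the 20S and 19S proteasome lists, in lists of related genes and in 3 other complexes, with the number of expressed genes in brackets; black bars are medians and dashed lines mark 1.5-fold. Medians are 0.42 and 0.44 for the proteasome lists and 0.41 for the CCT chaperonin, and the circle farthest left is MAFF.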

How the data were processed

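Expression was read from the value table of the series, which holds 54675 probe sets on 2 arrays, and the authors deposited it as log2 values. MAS5 and affy stand in the submitters' processing notes, without versions, and the methods of the study name SCAN and UPC; the trimmed linear mean was 500.1 on both arrays (2% left out at each end) and the lowest value 0, as in scaled MAS5 signals, and values were used as deposited. A further table holds 4 columns of per-sample signals and calls of other cells and the authors' own fold ratios, none of which was used.

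Probe sets with 1 gene (41097, of which 41043 matched RefSeq, GRCh38.p14, by gene ID) were named; 1801 with several and 11777 with none were not. Each gene was read by its brightest probe set (mean of both log2 values). The floor was the median of each array without the 62 control probe sets; lower values were raised to it, and a gene over it on at least 1 array was called expressed. The 3-fold limit is the study's and 1.5-fold was added. The arrays' number limits the precision, and no p-value was computed.

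All members were named; values were printed for those past 1.5-fold, for the highest and lowest of each group, for those with probe sets of both signs, and for others by role, and in the other lists for genes past 1.5-fold and for others by role. Members, lists and limits were chosen with earlier results of these data known. Alternatives were median centring, quantile normalization, loess (span 0.3, 3 robust iterations), no floor, a floor at the 75th percentile, the median over probe sets, no _x_at or _s_at probe sets, the dimmest probe set above the floor, list means and 19S without its chaperones; the median over bright probe sets was added after the data had been seen. Python 3.11.15, pandas 2.3.3, numpy 2.4.6 and statsmodels 0.14.6 were used, and the steps were tested on simulated data.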

Additional observations from a re-analysis of the deposited data

How the results depend on the processing

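A median was taken as moved when it changed by over 0.1 on the log2 scale, and a count when it changed by over 1.5 times. The median of the proteasome genes stayed above 0 in all 10 alternatives, from 0.22 with the median over probe sets to 0.47 when genes were averaged; the 20S median ranged from 0.22 (median over probe sets) to 0.46 and the 19S median from 0.20 to 0.59. The 19S median was 0.20 with the median over probe sets, 0.22 without _x_at and _s_at probe sets, 0.31 with the dimmest probe set, 0.34 with bright probe sets only and 0.59 without PSMD5, PSMD9 and PSMD10. The gap between the 20S and 19S medians had no stable sign: it was 0.24 without _x_at and _s_at probe sets, 0.091 with the dimmest probe set and -0.17 without the chaperones. Members past 1.5-fold higher numbered 7 to 11. Members past 1.5-fold lower numbered 4 with the median over probe sets, 2 without _x_at and _s_at probe sets, 2 with the dimmest probe set and 1 with bright probe sets. Of the members, 23 of 30 were higher with the median over probe sets and 22 of 30 with the dimmest; without _x_at and _s_at probe sets 22 were measured and 18 of these were higher. Normalization and floor left 29 of 30 higher in each case. PSMD6 turned to -1.19 with the median over its probe sets, because that includes one under the floor on both arrays. EIF3B turned to -0.21 without _x_at and _s_at probe sets and -0.20 with the dimmest, and EIF3J to -0.10 with the dimmest. No paired analysis was possible because each line had 1 array. The single array a line limits what can be said of any gene.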
